A study of Mus musculus with 5 samples.

Results

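Interferon-stimulated genes are the set that cells switch on when an interferon reaches its receptor. A list of 44 such genes was followed in immune cells of mouse skin, and all 44 were found by symbol among the 27998 genes of the deposited tables. Dermal cells of C57BL/6 mice had been sorted for viability and the pan-leukocyte protein CD45 and run on the 10x Genomics droplet platform, with 1 library per group. P50_Depil5D is labelled with depilation and 5 days, and is read as postnatal day 50, the same day as P50. P45, P50, P63 and P80 are 4 time points of telogen, the resting phase of the hair cycle, named by postnatal day. Neither the number or sex of the animals nor the treatment of the skin beyond these names is given in the labels, and no group carries a named allele.

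Type I and type III interferons act through receptors that lead to a transcription factor complex holding STAT2 and IRF9, which binds a DNA element called the interferon-stimulated response element. Interferon gamma, made mainly by T and NK cells, acts through its own receptor and a DNA element called the gamma-activated site. The proteins encoded by the list block viral entry (the IFITM proteins), bind viral RNA (the IFIT and OAS proteins), modify other proteins (ISG15), sense foreign nucleic acid, attack vacuoles that hold microbes (the inducible GTPases), or draw in T cells (CXCL9 and CXCL10).

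Promoter sequence from RefSeq (GRCm38.p6) was on hand for 33 of the 44 genes. The core of the interferon-stimulated response element, GAAANNGAAA on either strand, lay in the 250 bases before the start of 18 of the 33 genes (54.5%), against 936 of 27025 genes in the whole table (3.46%). The palindromic gamma-activated site, TTCNNNGAA, lay there in 7 of the 33 (21.2%), against 8.13% of all genes. Both were present in 5 of the 33, against 0.459% of all genes, and the elements may share bases. A match describes the letters only. The stretches below are shown because they come from members named in the results that follow, from several roles. Isg15 had 3 matches to the core and Bst2 and Ifit3 2 each, and only the match nearest the start is marked. The stretches read 5′ to 3′ on the gene's strand, with that match in capitals (the reverse complement, TTTCNNTTTC, where it lies on the other strand).
Isg15: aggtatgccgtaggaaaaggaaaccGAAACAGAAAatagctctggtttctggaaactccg
Bst2: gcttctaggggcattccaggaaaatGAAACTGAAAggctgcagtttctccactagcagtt
Ifit3: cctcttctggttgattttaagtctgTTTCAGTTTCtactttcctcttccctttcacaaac
Rsad2: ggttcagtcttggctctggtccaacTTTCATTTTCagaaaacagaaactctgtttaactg
Gbp7: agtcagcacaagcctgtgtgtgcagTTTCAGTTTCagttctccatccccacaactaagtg
Igtp: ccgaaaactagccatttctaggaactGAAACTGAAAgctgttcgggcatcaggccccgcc
Cxcl10: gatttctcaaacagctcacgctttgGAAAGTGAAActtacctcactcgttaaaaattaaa
The stretches are chr4:156200850-156200909 (Isg15, minus strand), chr8:71537562-71537621 (Bst2, minus), chr19:34583382-34583441 (Ifit3, plus), chr12:26456538-26456597 (Rsad2, minus), chr3:142530258-142530317 (Gbp7, plus), chr11:58199496-58199555 (Igtp, plus) and chr5:92349068-92349127 (Cxcl10, minus). The marked core ends 56 bases before the start of Isg15 and 43 bases before that of Gbp7.

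The libraries held between 497 and 2153 barcodes and between 1032621 and 7491878 unique molecular identifiers (UMIs, each a captured RNA molecule). Cells were gated by markers: 1482 were T-like, 592 macrophage-like, 610 dendritic-like, 116 monocyte-like, 1119 keratinocyte-like and 18 NK-like, and 2134 of 6162 stayed ungated. Some genes kept outside the marker lists as a check fitted these names: Csf1r stood at 408 CPM in macrophage-like cells and 5.97 CPM in T-like cells, Lat at 572 CPM in T-like cells, and the keratin gene Krt17 at 608 CPM in keratinocyte-like cells. Plac8, a monocyte check, stood at 1069 CPM in monocyte-like and 66.0 CPM in macrophage-like cells. The dendritic check H2-DMb2 stood at 166 CPM in dendritic-like and 82.7 CPM in macrophage-like cells. Others did not set their class apart. Apoe, a macrophage check, stood at 8286 CPM in macrophage-like and 10200 CPM in keratinocyte-like cells. Nkg7, an NK check, stood at 3147 CPM in NK-like and 3165 CPM in T-like cells. The monocyte check Ly6c2 stood at 185 CPM in monocyte-like and 234 CPM (9 UMIs) in NK-like cells. Ciita, a dendritic check, stood at 23.0 CPM in dendritic-like and 20.2 CPM in macrophage-like cells. Dendritic-like and monocyte-like cells rest on few markers, since 454 of the 610 and 60 of the 116 had just the 2 required. Libraries share cell barcodes: P63 and P80 had 193 in common, P50 and P80 190, and P45 had at most 7 in common with any other. Keratinocyte-like cells, although keratinocytes lack CD45, make up 589 of the kept cells with a shared barcode, so their levels, contrasts and ratios are given with and without those cells, of which 530 keratinocyte-like cells had no shared barcode. No doublet caller was run, and doublets must be taken to remain.

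With all libraries pooled, monocyte-like and macrophage-like cells carried the most interferon-stimulated RNA. The summed level of the 44 members was 5169 CPM (UMIs per 1000000 UMIs of the class; exact Poisson 95% interval 4912 to 5437) in monocyte-like cells and 3406 CPM (3311 to 3502) in macrophage-like cells. It was 2393 CPM (1929 to 2935) in the 18 NK-like cells and 1927 CPM (1860 to 1996) in dendritic-like cells, neighbours whose intervals overlap. Keratinocyte-like cells had 1465 CPM (1434 to 1497), or 1350 CPM (1311 to 1389) without shared barcodes, and T-like cells had 1285 CPM (1239 to 1331). The order was not the same in every library. In P50_Depil5D the 5 NK-like cells stood at 4238 CPM (3156 to 5573), 1 of them holding 82.4% of their member UMIs, ahead of 3041 CPM (2494 to 3671) in monocyte-like, 2366 CPM (2126 to 2626) in macrophage-like and 2132 CPM (1997 to 2273) in dendritic-like cells, and the last pair of intervals overlap. In P50 the macrophage-like level of 6911 CPM (6609 to 7224) and the monocyte-like level of 6197 CPM (5671 to 6760) had intervals that overlap. These intervals, and all those on levels and ratios below, cover counting error only and not differences between animals.

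**Figure D1:**
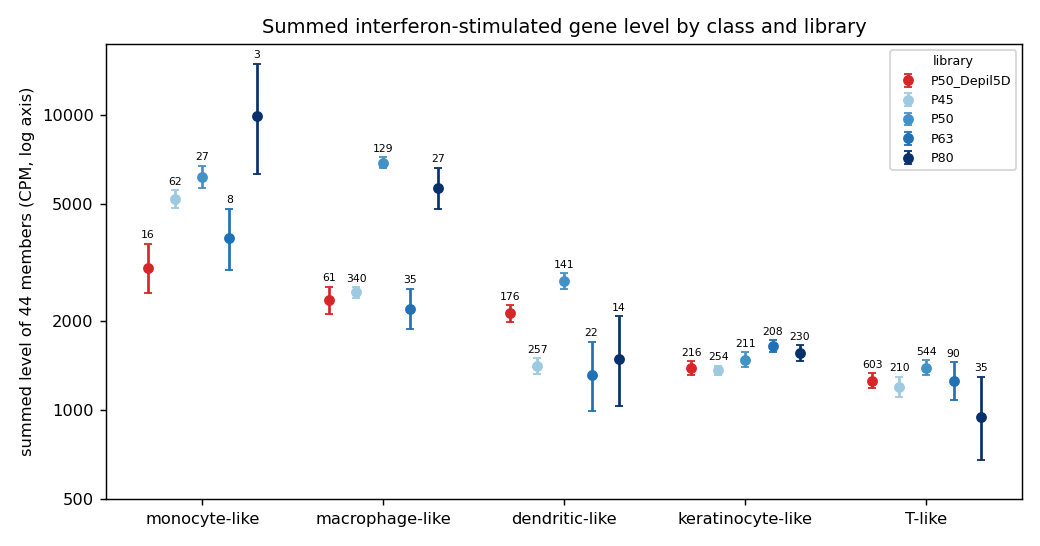
Summed level of the 44 members (CPM, log axis) in 5 gated classes, with 1 point per library, exact 95% Poisson intervals and the number of cells above each point. Macrophage-like cells of P50 and P80 sit at 6911 and 5684 CPM, above those of P50_Depil5D, P45 and P63.

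A few genes made up most of that sum. Ifi27l2a (mitochondrial protein of the ISG12 family, chr12:103442167-103443680, minus strand), Ifitm2 (chr7:140954837-140955987, minus), Ifitm3 (chr7:141009586-141010770, minus) and Bst2 (tetherin, which holds budding virus at the membrane; chr8:71534255-71537456, minus) gave 75.0% of all member UMIs. UMIs are counted from 3′ ends, so levels are not divided by gene length. Reads shared among the neighbouring, similar Ifitm genes, or among the Gbp, Oas and Ifi200 families, could be divided between copies by a counting step that is not given in the sources used here. In macrophage-like cells the leading members were Ifi27l2a with 989 CPM, Ifitm2 with 715 CPM, Ifitm3 with 648 CPM, Bst2 with 210 CPM and Isg15 with 86.9 CPM. In monocyte-like cells Ifitm3 led with 1802 CPM, followed by Ifi27l2a with 1449 CPM, Ifitm2 with 904 CPM, Bst2 with 116 CPM, and Isg15 and Ifi203 with 85.6 CPM each.

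The make-up of the sum differed by class. T-like cells had Bst2 first with 322 CPM, then Ifi27l2a with 235 CPM, Isg15 with 184 CPM, Ifitm2 with 69.6 CPM and the nucleic acid sensor gene Ifi203 with 65.3 CPM, and the 4 leading genes of the whole set gave 50.3% of their member UMIs. Keratinocyte-like cells drew 84.6% of theirs from the IFITM genes, with Ifitm3 at 785 CPM and Ifitm2 at 454 CPM, ahead of Ifi27l2a at 38.0 CPM, the chemokine gene Cxcl10 at 26.1 CPM and Bst2 at 18.9 CPM. Without shared barcodes the IFITM share was 84.9%, with Ifitm3 at 705 CPM, Ifitm2 at 440 CPM, Ifi27l2a at 37.1 CPM, Bst2 at 21.3 CPM and Cxcl10 at 21.0 CPM. Dendritic-like cells had Ifi27l2a at 584 CPM, Ifitm2 at 557 CPM, Ifitm3 at 212 CPM, Bst2 at 151 CPM and Isg15 at 45.3 CPM. The NK-like cells, with 92 member UMIs in all, had Bst2 at 390 CPM (15 UMIs), Ifi203 at 286 CPM (11 UMIs), Zbp1 at 182 CPM (7 UMIs) and Ifi47 at 156 CPM (6 UMIs), and Cxcl10, Ifit1 and Trim30a had 5 UMIs each.

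**Figure D2:**
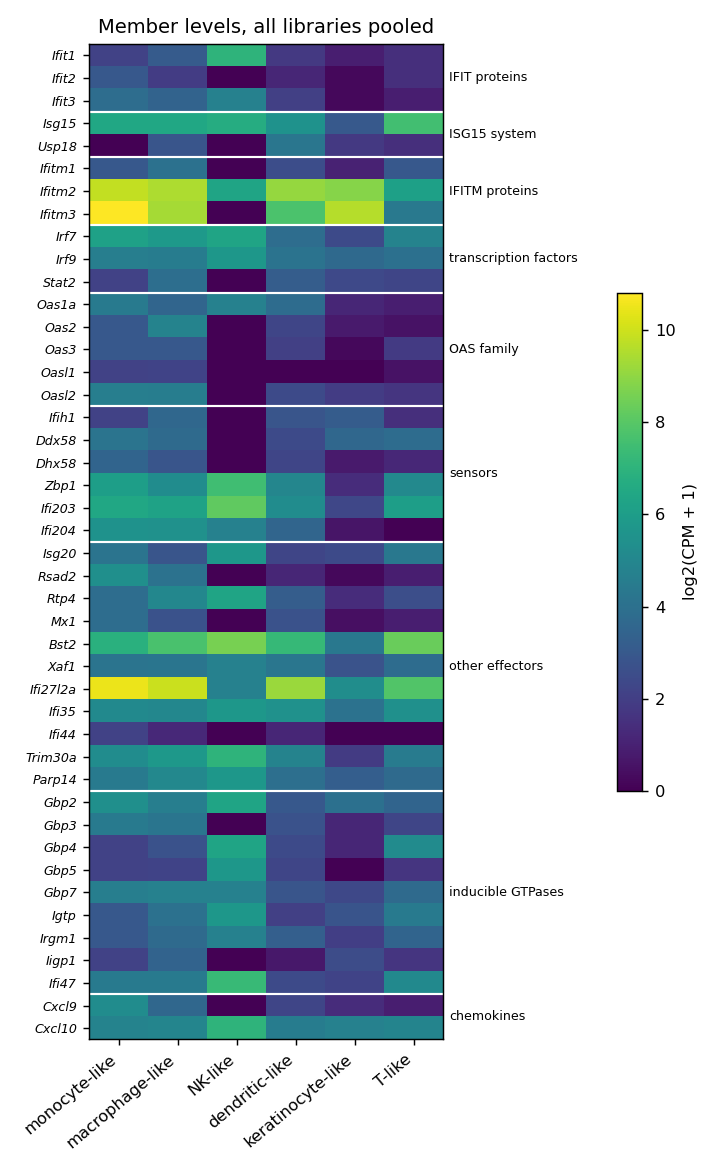
Level of each of the 44 members (rows, grouped by role) in 6 gated classes, all libraries pooled, as log2(CPM + 1). Ifitm2, Ifitm3 and Ifi27l2a are the brightest rows in monocyte-like and macrophage-like cells, Bst2, Ifi27l2a and Isg15 in T-like cells, and Ifitm3 and Ifitm2 in keratinocyte-like cells.

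The genes most tied to an acute interferon response were scarce. Over all 6162 cells Ifit1 had 59 UMIs, Ifit3 54, Ifit2 28, Rsad2 70, Mx1 38, Ifi44 19 and Oasl1 11. Usp18, which removes ISG15 from proteins and dampens the type I receptor, had 116 UMIs. All 44 members had at least 1 UMI somewhere, and T-like cells had 0 UMIs of Ifi204 and Ifi44.

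Each cell was also scored by its member UMIs after thinning to 1000 UMIs, which left out 43 macrophage-like, 25 dendritic-like, 6 monocyte-like, 114 keratinocyte-like and 260 T-like cells that were shallower. The median score was 3 in monocyte-like cells, 2 in macrophage-like cells and 1 in each of dendritic-like, keratinocyte-like and T-like cells. A score of 5 or more was reached by 38.2% of monocyte-like, 25.3% of macrophage-like, 8.55% of dendritic-like, 4.88% of keratinocyte-like (4.44% without shared barcodes) and 4.17% of T-like cells. In macrophage-like cells the median was 1 in P50_Depil5D (58 cells), and 2 in P45 (340 cells), 5 in P50 (108 cells), 1 in P63 (35 cells) and 6.5 in P80 (8 cells).

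Whether the members differ between cell classes was tested on UMIs summed per library and class, with T-like cells as the shared comparison class of all 4 contrasts and the library as a block (edgeR quasi-likelihood test, Benjamini-Hochberg adjusted over 6633 genes, called at an adjusted p under 0.05). The libraries are different groups of the study and not replicates of a group, so a p-value here measures whether a class difference holds across them. Low counts left 25 of the 44 members in the test. The 19 others were Ifit1, Ifit2, Ifit3, Usp18, Stat2, Oas3, Oasl1, Oasl2, Ifih1, Dhx58, Isg20, Rtp4, Mx1, Ifi44, Gbp5, Igtp, Irgm1, Iigp1 and Cxcl9. A member that passed the filter through the class where it is high had to differ, so the counts below describe the tested members and are set beside the share of all genes called. Ifi204, with 0 UMIs in T-like cells, is such a member. Oas1a, Oas2 and Rsad2 may be others, so the calls of these genes below are a description only. The 18 NK-like cells gave no library with 10 cells and could not be tested.

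In macrophage-like cells 12 of the 25 tested members rose over T-like cells and 1 fell. Of all genes 18.6% rose and 18.4% fell. The median log2 fold change was 0.93 over the tested members and -0.07 over all genes. Ifitm3 was 30.5-fold higher (log2 4.93 ± 0.46 SE, edgeR adjusted p = 1.84e-13), at 334 CPM in P50_Depil5D and 428, 1504, 394 and 1467 CPM in P45, P50, P63 and P80, against 19.6 CPM in T-like cells of all libraries. The oligoadenylate synthase gene Oas2, whose product activates RNase L, rose by 5.61 ± 0.79, Oas1a by 3.83 ± 0.86 and Rsad2, whose product viperin makes a chain-terminating nucleotide, by 4.32 ± 0.83 (log2). The DNA sensor gene Ifi204 had 62 UMIs (43.1 CPM) in macrophage-like cells of all libraries and 0 in T-like cells. Its level was 33.7-fold that of a floor of 3 counts over the T-like group. This fold, and those given for Ifi204 below, leave out the counting error of the higher class.

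Among the others that rose in macrophage-like cells were Ifitm2 (log2 3.31), Gbp3 (2.33), Ifi27l2a (2.08), Irf7 (1.60), Trim30a (1.53), Gbp2 (1.47) and Parp14 (1.43). Gbp4, a guanylate-binding GTPase gene, was the member that fell, by 2.33 ± 0.56 (log2, edgeR adjusted p = 0.000538). Isg15 and Bst2 did not pass (log2 -0.26 ± 0.32 and -0.03 ± 0.30, edgeR adjusted p = 0.563 and 0.958). Without P50, Irf7, Parp14 and Gbp2 were no longer called, and the count was 9 of 24 tested, beside 30.9% of all genes called. Gbp2 was also not called without P80, by DESeq2 or with no replicate block.

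In monocyte-like cells, which entered from 3 libraries (P50_Depil5D, P45 and P50), 8 members rose and 2 fell, against 8.46% and 12.2% of all genes. The largest measured fold changes belonged to Ifitm3 (67.7-fold, log2 6.08 ± 0.49, edgeR adjusted p = 8.25e-15), Rsad2 (log2 5.29 ± 1.04), Oas1a (4.52 ± 1.09) and Ifitm2 (3.53 ± 0.33). Ifi204 also rose, with 13 UMIs over all libraries, at 34.8-fold the T-like floor. Gbp3 (log2 2.70), Gbp2 (2.32) and Ifi27l2a (2.31) rose as well. Gbp4 fell by 2.98 ± 1.09 and Bst2 by 1.15 ± 0.41 (edgeR adjusted p = 0.0436 and 0.0376). The call of Bst2 held in 3 of 13 alternatives and that of Gbp4 in 4 of 10. Both were lost by DESeq2, with a stricter gate, without the deepest 5% of cells and without P50 or P80. That of Gbp4 was also lost without P63. That of Bst2 was also lost with no replicate block, without shared barcodes, in thinned cells, with at least 20 cells per library and without P50_Depil5D. The call of Gbp3 was lost without P45 or P50 and with at least 20 cells per library, and that of Gbp2 without P45, with a stricter gate and with no replicate block.

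In dendritic-like cells 6 members rose and 3 fell, against 17% and 18.6% of all genes. Those that rose were Oas1a (log2 4.24 ± 0.80), Ifitm3 (3.60 ± 0.47), Ifitm2 (3.24 ± 0.30), Oas2 (2.97 ± 1.12), Ifi27l2a (1.52 ± 0.35) and Ifi204, which had 17 UMIs and stood at 8.24-fold the T-like floor. Gbp4 fell by 2.53 ± 0.56, the GTPase gene Ifi47 by 2.36 ± 0.52 and Isg15 by 1.15 ± 0.34 (log2, edgeR adjusted p = 0.000208, 0.000211 and 0.00512). Oas2 was not called with any of P50_Depil5D, P45 or P50 left out, with a stricter gate or with no replicate block. Isg15 was not called without P50_Depil5D or with no replicate block, and Ifi204 not with a stricter gate.

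Keratinocyte-like cells went mostly the other way: 2 members rose and 12 fell, against 25.6% and 24.2% of all genes. Ifitm3 (log2 5.32 ± 0.45) and Ifitm2 (2.99 ± 0.29) rose. The 5 with the largest falls were Gbp4 (-4.47 ± 0.50), the Z-nucleic acid sensor gene Zbp1 (-4.04 ± 0.54), Ifi203 (-3.91 ± 0.43), Isg15 (-3.84 ± 0.35) and Bst2 (-3.27 ± 0.31), with edgeR adjusted p from 2.84e-14 to 4.13e-09. The others that fell were Ifitm1 (-3.10), Trim30a (-2.69), Ifi47 (-2.67), Ifi27l2a (-2.27), Irf7 (-1.99), Gbp7 (-1.57) and Ifi35 (-1.16). The median log2 fold change was -1.40 over the tested members and 0.05 over all genes. Without the cells that share a barcode, 9 members could be tested and all 9 were called, 2 higher and 7 lower, beside 53.2% of all genes called. The T-like level of Ifitm3, 19.6 CPM, is close to that of keratinocyte RNA found in T-like cells (Fxyd3 12.8 CPM, Krt14 21.3 CPM). The part of such RNA in the T-like value was not tested.

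**Figure D3:**
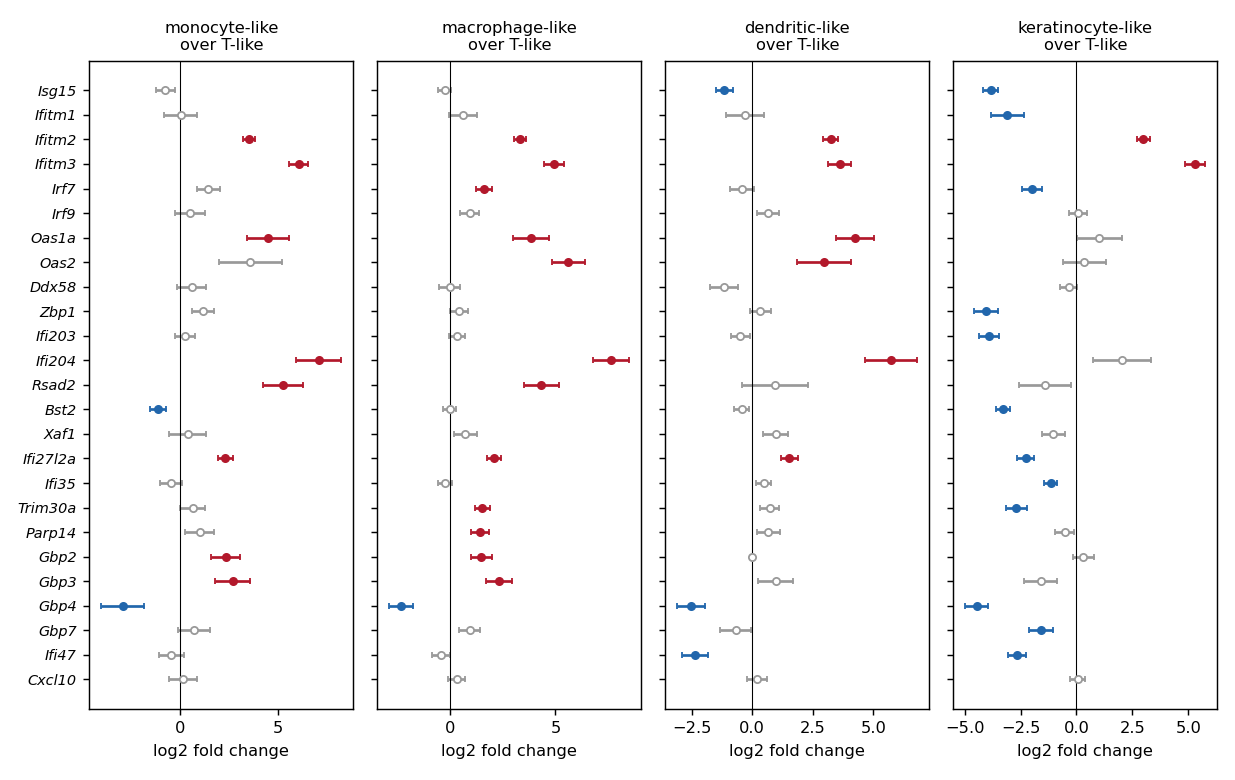
log2 fold change ± SE of the 25 tested members in 4 classes over T-like cells. The SE was derived from the test's F value. It is unreliable near a fold change of 0, as for Gbp2 (0.067 in dendritic-like, 0.51 in macrophage-like cells). Filled red points were called higher and filled blue points lower (edgeR adjusted p under 0.05), and open grey points were not called. Ifitm2 and Ifitm3 are red in all 4 panels, and Gbp4 is blue in all 4.

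With cells pooled over libraries, Isg15 was detected more often in T-like cells than in macrophage-like, dendritic-like and keratinocyte-like cells. After thinning to 1000 UMIs, Isg15 had a UMI in 177 of 1222 T-like cells (14.5%, exact Clopper-Pearson 95% interval 12.6 to 16.6), in 6.38% of macrophage-like (4.48 to 8.76) and 3.59% of dendritic-like cells (2.24 to 5.44), and in 0.697% of keratinocyte-like cells (0.280 to 1.43; 0.605% without shared barcodes). The share was 6.36% of 110 monocyte-like cells (2.60 to 12.7) and 1 of 18 NK-like cells (0.141 to 27.3), and these intervals meet that of T-like cells. Unthinned, the shares were 18.1% of T-like, 10.1% of macrophage-like, 6.72% of dendritic-like, 3.40% of keratinocyte-like and 14.7% of monocyte-like cells, at median depths of 1315 UMIs in T-like cells and 2806 UMIs in keratinocyte-like cells. These intervals leave out differences between libraries. P50 gave 400 and P50_Depil5D 510 of the 1222 thinned T-like cells, against 108 and 58 of 549 macrophage-like cells. Blocked by library, the Isg15 level was not called between macrophage-like and T-like cells (log2 -0.26 ± 0.32, edgeR adjusted p = 0.563). The part of the library mix in the shares was not tested. Isg15 in T-like cells stood at 228 CPM in P50_Depil5D, and at 45.6, 247, 90.5 and 73.1 CPM in P45, P50, P63 and P80. Bst2 there stood at 398 CPM in P50_Depil5D, and at 135, 405, 125 and 122 CPM. For both genes the P50_Depil5D and P50 libraries are high and the 3 others low. The summed T marker list moved with them, at 12152 CPM in P50_Depil5D, and 5419, 13461, 6753 and 8361 CPM in P45, P50, P63 and P80. Its part in the result was not tested.

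Other genes of the interferon pathway gave the setting. Of 10 interferon genes listed, Ifng was the one with enough UMIs to test: it had 66 UMIs in T-like cells (28.2 CPM), 15 UMIs in the 18 NK-like cells (390 CPM) and 140 UMIs in all cells. Ifnb1 had 2 UMIs and Ifnk 1 UMI over all cells. Ifng was lower than in T-like cells in all 4 tested classes, by 2.73 to 6.53 on the log2 scale. By library, T-like Ifng was 21.5 CPM in P50_Depil5D, and 29.7, 18.2, 97.5 and 97.5 CPM in P45, P50, P63 and P80, the last from 4 UMIs.

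The receptor, regulator and other inducible lists are short, and their counts stand beside 18.6% of all genes higher and 18.4% lower in macrophage-like, 8.46% and 12.2% in monocyte-like, 17% and 18.6% in dendritic-like, and 25.6% and 24.2% in keratinocyte-like cells. Of 6 receptor genes listed, 5 were tested. In macrophage-like cells Ifnar2, a chain of the type I receptor, rose (log2 1.17 ± 0.31, edgeR adjusted p = 0.00170), as did Il10rb, a chain of the type III receptor (1.39 ± 0.33), and Ifngr1 fell by 0.69 ± 0.28. In keratinocyte-like cells all 5 fell. In dendritic-like cells Ifnar2 rose and Ifngr1 fell, and in monocyte-like cells none of the 5 was called. Of the signalling genes, Socs1, a feedback inhibitor of JAK kinases, fell in macrophage-like, monocyte-like, dendritic-like and keratinocyte-like cells (log2 -3.34, -3.62, -2.61 and -2.35). Of the 7 tested regulators, Irf5 and Irf8 rose in macrophage-like (log2 3.12 and 2.11), monocyte-like and dendritic-like cells, with 3, 2 and 3 called higher, and 1 rose and 2 fell in keratinocyte-like cells. Of 9 other tested inducible genes, 2 rose and 0 fell in macrophage-like cells, 2 rose and 1 fell in monocyte-like cells, 4 rose and 3 fell in dendritic-like cells, and 1 rose and 5 fell in keratinocyte-like cells.

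The macrophage-like cells of the depilated skin held less interferon-stimulated RNA than those of P50. P50_Depil5D and P50 are 1 library each, so there is no test, and a gene is called past the fold when it has at least 20 UMIs in the 2 libraries, a ratio of at least 1.5-fold and a 95% interval that leaves out 1. The summed level was 2366 CPM in 61 macrophage-like cells of P50_Depil5D, against 6911 CPM in 129 such cells of P50, a ratio of 0.342 (0.305 to 0.384). Of 11 members with enough UMIs, 6 were past the fold and lower and 0 higher, beside 10.8% of all such genes lower and 6.1% higher. The median log2 ratio was -1.13 over those 11 members and -0.11 over all genes.

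Ifi27l2a had 708 CPM in P50_Depil5D, against 2457 CPM in P50, and Ifitm3 had 334 CPM in P50_Depil5D, against 1504 CPM in P50. These are ratios of 0.288 (0.233 to 0.354) and 0.222 (0.162 to 0.298). Isg15 was at 53.5 CPM (8 UMIs) in P50_Depil5D, against 247 CPM (70 UMIs) in P50, a ratio of 0.216 (0.0899 to 0.450). Ifitm2, Bst2 and Zbp1 had ratios of 0.480, 0.456 and 0.122, the last from 2 UMIs in P50_Depil5D, against 31 UMIs in P50. Irf7, which drives type I interferon genes, had 120 CPM in P50_Depil5D, against 138 CPM in P50, and was not past the fold.

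The macrophage-like cells of these libraries also differed in make-up. The summed macrophage markers stood at 6242 CPM in P50_Depil5D, against 14687 CPM in P50, and 24 of the 61 cells in P50_Depil5D had just the 2 required markers, against 15 of the 129 in P50. Cd207, which marks Langerhans cells and some dendritic cells, stood at 1156 CPM in P50_Depil5D (7 cells), against 378 CPM in P50 (6 cells). Mrc1, of tissue-resident macrophages, stood at 414 CPM in P50_Depil5D, against 568 CPM in P50, and Trem2 at 134 CPM in P50_Depil5D, against 353 CPM in P50. Folr2, also of resident macrophages, differed more, at 100.3 CPM in P50_Depil5D (15 UMIs), against 438 CPM in P50 (124 UMIs), and stood at 179, 127 and 440 CPM in P45, P63 and P80, so its high libraries were those with a high member sum. That was not so for Mrc1, at 670, 1042 and 770 CPM in P45, P63 and P80, or for Trem2, at 125, 28.2 and 0 CPM there. The ratio of the summed members was 0.390 without cells holding a Cd207 UMI, 0.309 in cells with a Mrc1 UMI, 0.392 in cells without one, and 0.367 with a stricter gate. The part of the marker list and of these genes in the result was not tested.

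Set among all libraries, P50 was high and P50_Depil5D was not low. The summed macrophage-like level was 2366 CPM in P50_Depil5D, near the 2507 CPM of P45 and the 2210 CPM of P63, with P50 at 6911 CPM and P80 at 5684 CPM. Cells with UMIs of 10 or more members made up 3 of 61 in P50_Depil5D (4.92%, exact 95% interval 1.03 to 13.7) and 15 of 129 in P50 (11.6%, 6.66 to 18.5). Those 15 cells held 38.6% of the member UMIs of their class in P50.

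The other classes had ratios closer to 1. Monocyte-like cells had 3041 CPM in P50_Depil5D (16 cells), against 6197 CPM in P50 (27 cells), a ratio of 0.491 (0.395 to 0.605). Scaled so that the bulk of genes stood level (TMM), it was 0.399, near the 0.350 of macrophage-like cells under the same scaling. Of 3 members with enough UMIs, Ifitm3 (0.392) and Ifi27l2a (0.289) were past the fold and lower, beside 7.88% of all such genes lower and 6.18% higher. Dendritic-like cells had 2132 CPM in P50_Depil5D, against 2743 CPM in P50, a ratio of 0.777 (0.711 to 0.849). Of 11 members there, Ifitm3 (0.419), Zbp1 (0.343) and Trim30a (0.210) were lower past the fold, beside 7.35% of all such genes lower and 2.11% higher. The interval of the dendritic-like sum took in 1 with a stricter gate, at 0.924 (0.751 to 1.13).

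T-like cells had 1258 CPM in P50_Depil5D, against 1393 CPM in P50, a ratio of 0.903 (0.830 to 0.983). Of 16 members, Cxcl10 alone was past the fold, at 0.512 (0.264 to 0.963), beside 3.92% of all such genes lower and 2.56% higher. Keratinocyte-like cells had 1388 CPM in P50_Depil5D, against 1485 CPM in P50, a ratio of 0.935 (0.864 to 1.01), and 0 of 7 members were past the fold, beside 2.86% of all such genes lower and 4.28% higher. Without shared barcodes the keratinocyte-like ratio was 0.945. Over all cells the ratio was 0.632 (0.611 to 0.654). Macrophage-like cells numbered 61 of 1494 in P50_Depil5D, against 129 of 1462 in P50. Ungated cells also stood lower, at 1796 CPM (1706 to 1890) in 414 cells of P50_Depil5D, against 2752 CPM (2642 to 2866) in 392 cells of P50. The part of the cell mix in the all-cell ratio was not tested.

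Over telogen the macrophage-like level did not follow age in one direction. It was 2507 CPM in P45 (340 cells), 6911 CPM in P50 (129 cells), 2210 CPM in P63 (35 cells) and 5684 CPM in P80 (27 cells). The ratio of P80 over P45 was 2.27 (1.91 to 2.67). Of 16 members with enough UMIs 4 were past the fold and higher and 0 lower, beside 4.22% of all such genes higher and 1.62% lower. Isg15 had 330 CPM (9 UMIs) in P80, against 37.5 CPM (34 UMIs) in P45, a ratio of 8.81 (3.72 to 18.8). Ifitm3 and Ifi27l2a had ratios of 3.43 (2.41 to 4.76) and 2.19 (1.52 to 3.05), and Gbp2 one of 5.87 (1.10 to 20.3) from 3 UMIs in P80, against 17 UMIs in P45.

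The P80 macrophage-like cells were shallow, with a median of 832 UMIs, against 2275 UMIs in P45, and keratinocyte markers summed to 1394 CPM in them, against 344 CPM in P45. The macrophage markers summed to 12872 CPM in P80, against 9848 CPM in P45, and Folr2 stood at 440 CPM (12 UMIs) in P80, against 179 CPM (162 UMIs) in P45. The part of depth and of these markers in the result was not tested. Scaling by TMM, which sets the bulk of genes level and here moved the log2 ratio of all genes by -0.72, gave a ratio of 1.38. Without cells that hold 10 or more members it was 1.75, and in thinned cells, of which P80 had 8, it was 2.98.

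**Figure D4:**
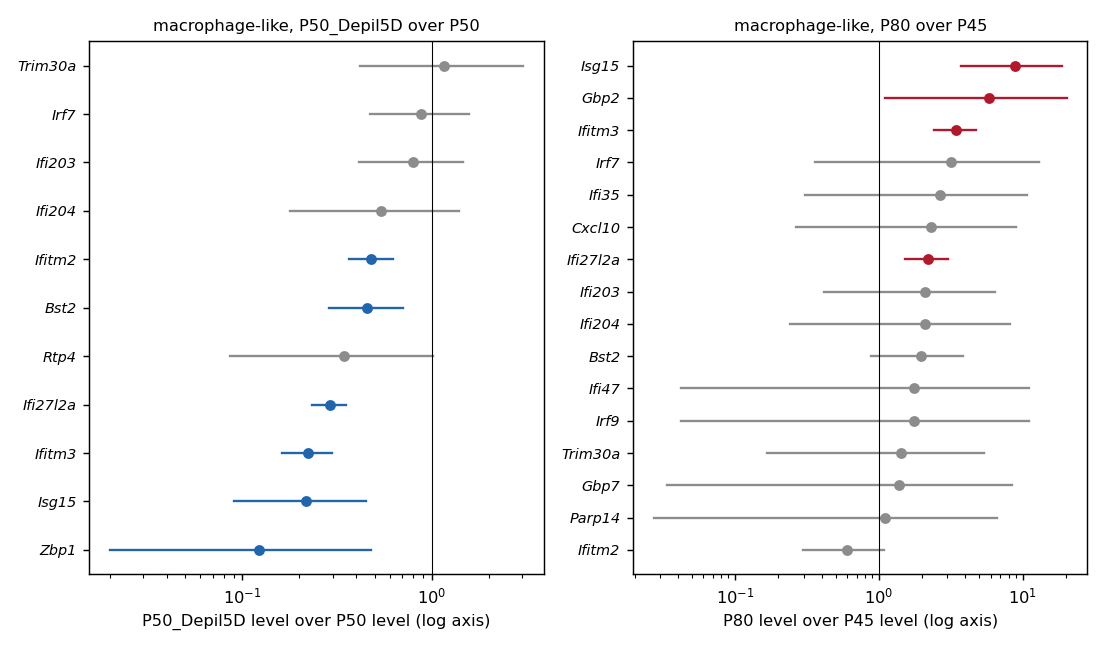
Ratio of each member's level in macrophage-like cells, P50_Depil5D over P50 (left) and P80 over P45 (right), for members with at least 20 UMIs in the 2 libraries, with exact 95% intervals on a log axis. Coloured points are past the fold: 6 lie below 1 on the left and 4 above 1 on the right.

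In the other classes the ratio of P80 over P45 lay closer to 1 without TMM. With TMM it was 0.621 in dendritic-like cells, where the direction turned, 0.536 in T-like and 1.07 in keratinocyte-like cells, so that dendritic-like and T-like cells lay further from 1 than macrophage-like cells at 1.38. All genes moved by -0.77 and -0.57 (log2) under this scaling in dendritic-like and T-like cells. Without it, dendritic-like cells had 1494 CPM in P80 (14 cells), against 1414 CPM in P45, a ratio of 1.06 (0.728 to 1.49), with 0 of 8 members past the fold, beside 3.43% of all such genes higher and 1.43% lower. Keratinocyte-like cells had 1566 CPM in P80, against 1364 CPM in P45, a ratio of 1.15 (1.07 to 1.23), which was 1.18 (0.980 to 1.41) without shared barcodes. There 0 of 10 members were past the fold, beside 8.83% of all such genes higher and 5.27% lower. T-like cells had 951 CPM in P80, against 1198 CPM in P45, a ratio of 0.793 (0.559 to 1.10). Of 8 members Ifi27l2a alone was past the fold, at 146 CPM (6 UMIs) in P80, against 345 CPM (174 UMIs) in P45, beside 2.47% of all such genes lower and 5.29% higher. P80 monocyte-like cells numbered 3 and were not compared.

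Part of the interferon-stimulated RNA sat in few cells. Over all libraries 85 of 6162 cells had UMIs of 10 or more members, and they held 12.7% of all member UMIs. They held 78.9% of the UMIs of Ifi44, 70.4% of Ifit3, 64.4% of Ifit1, 64.3% of Ifit2 and 57.1% of Rsad2. The cells were chosen by these same members, so part of each share follows from the choice, and the values are a description. Of these cells 24 were macrophage-like, 8 keratinocyte-like, 6 monocyte-like, 5 dendritic-like, 1 NK-like, 1 T-like and 37 ungated, with the rest in gates not described here. They were deeper than the rest, with a median of 3136 UMIs, against 1981.5 UMIs over all cells, and more UMIs give more members a chance to be counted.

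The kind of member that filled these cells, and the class of the cells, differed between libraries. They numbered 11 in P50_Depil5D (0.736% of its cells, exact 95% interval 0.368 to 1.31), 24 in P45 (1.12%, 0.719 to 1.66), 29 in P50 (1.98%, 1.33 to 2.84), 17 in P63 (2.95%, 1.73 to 4.68) and 4 in P80 (0.820%, 0.224 to 2.09). In P63 the inducible GTPase genes gave 24.5% and the chemokine genes 11.9% of their member UMIs, and in P50 they gave 2.66% and 0.649%. In P50 the effector group led by Ifi27l2a gave 43.8%, and in P63 10.5%. These are unlike cells: the 17 in P63 were 11 ungated and 5 keratinocyte-like, 1 in another gate and 0 macrophage-like, and the 29 in P50 were 15 macrophage-like, 6 ungated, 3 dendritic-like, 2 monocyte-like, 2 keratinocyte-like and 1 in another gate. Among ungated cells alone, which may also differ in type, GTPase genes gave 26.9% in the 11 cells of P63 and 1.94% in the 6 of P50, chemokine genes 14.2% in P63 and 0 of 258 UMIs in P50, and the effector group 10.6% in P63 and 48.4% in P50. In P63, 10 of the 17 cells shared a barcode with another library. The 7 without a shared barcode had 20.1% from GTPase genes and 18.9% from chemokine genes.

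The P63 cells also held much of that library's RNA of single members, again among the genes they were chosen by. In P63 the 17 cells held 105 of the library's 142 UMIs of Gbp2, 73 of 84 of Cxcl9, 58 of 114 of Cxcl10, 48 of 62 of Iigp1 and 34 of 51 of Igtp. Gbp2, Iigp1, Igtp and Cxcl9 are widely used as readouts of interferon gamma, but the part of any interferon in these P63 values was not tested. Over all cells Gbp2 stood at 11.0 CPM in P50_Depil5D, and 12.7, 15.2, 76.4 and 21.6 CPM in P45, P50, P63 and P80. Cxcl9 stood at 5.48 CPM in P50_Depil5D, and 11.5, 4.97, 45.2 and 2.94 CPM in the same order. Both were highest in P63 with an interval that met no other library's (64.3 to 90.0 CPM for Gbp2 and 36.0 to 55.9 CPM for Cxcl9). That held without shared barcodes, at 61.9 CPM (44.4 to 83.9) for Gbp2 and 84.5 CPM (63.8 to 109.7) for Cxcl9 in P63. In keratinocyte-like cells Gbp2 was 13.9 CPM in P50_Depil5D, and 2.8, 6.2, 48.2 and 11.9 CPM in P45, P50, P63 and P80. Without shared barcodes, which left 65 of 208 such cells in P63, it was 7.94 CPM in P50_Depil5D, and 2.8, 2.06 and 96.8 CPM (14 UMIs) in P45, P50 and P63, with 0 UMIs in the 62 cells of P80.

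**Figure D5:**
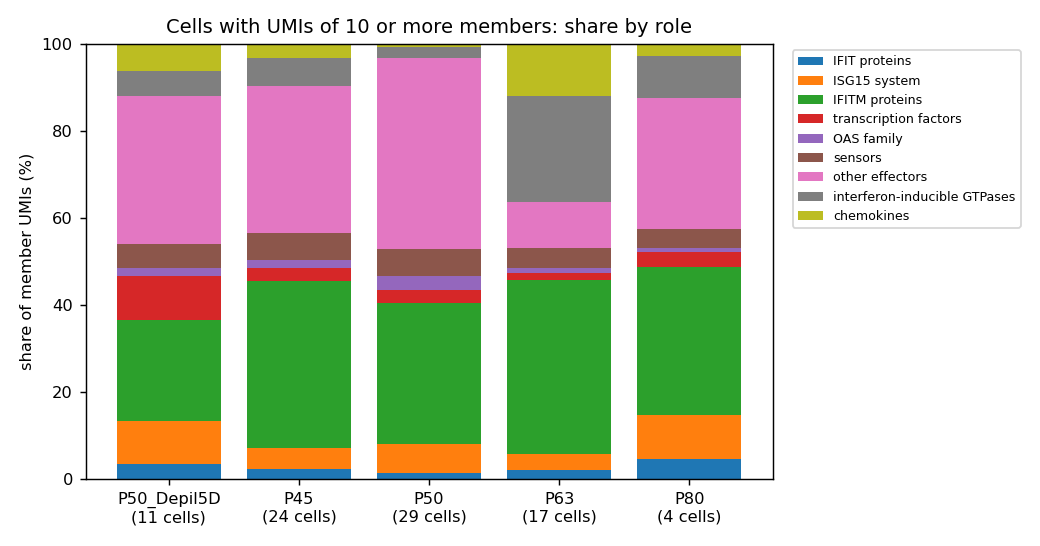
Share of member UMIs by role (percent) in cells with UMIs of 10 or more members, 1 bar per library with the number of cells below it. The grey (GTPase) and olive (chemokine) parts together are widest in P63 and narrowest in P50.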

How the data were processed

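Per the labels, cells were captured in 10x Genomics droplets and sequenced as 3′-end libraries. The deposited matrices hold whole-number UMI counts, and per the submitters' processing notes the build is mm10 and Seurat was used. No source used here names the aligner, the counter or how cells were called. Of 6223 barcodes, 61 were dropped for a mitochondrial share over 10%, and 0 for fewer than 200 genes. A cell was gated with at least 2 markers of a class (4 for keratinocyte) and no other class over 0.5 times as many. Class tests used edgeR 4.0.16 (TMM, quasi-likelihood) on counts summed per library and class with at least 10 cells; DESeq2 1.42.0 was an alternative. The libraries are different groups, so the library block pairs classes of 1 library. Each SE of a log2 fold change is its absolute value divided by the square root of the test's F value. Levels and ratios used scipy, with exact intervals at 95%. Methods were tested on simulated data. Gene places are GENCODE vM21. Named members are, per class, the 5 highest, per contrast the 5 largest calls each way, and per library pair those past the fold. Pathway genes named are up to 4 per contrast; Mx2, Ifi208, Ifi213 and Gbp6 were not used. Single cells, their split by class and the levels named in P63 were chosen after their values were seen. The members and lists were chosen with earlier results of these data known. Counts of calls for the signalling list are not reported here.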

Additional observations from a re-analysis of the deposited data

Results flagged for a closer look

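Ifi27l2a pointed in opposite directions in macrophage-like and T-like cells between P80 and P45: its ratio, P80 over P45, was 2.19 (1.52 to 3.05) in macrophage-like cells and 0.424 (0.154 to 0.943) in T-like cells. The difference between the classes was not tested, since each group is 1 library.

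Cells that no gate took in, which enter the all-cell values but no comparison of classes, also held UMIs of 10 or more members: 4 in P50_Depil5D, and 14, 6 and 11 in P45, P50 and P63. In P63 these 11 of 203 ungated cells (5.42%, exact 95% interval 2.74 to 9.49) held 48.5% of the member UMIs of the ungated cells. Their median depth was 3136 UMIs, against 1589 UMIs over the ungated cells of P63, and the part of depth was not tested.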

How the results depend on the processing

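Of 509 alternative values for called members in the class contrasts, 472 kept the call, 37 lost it and 0 changed direction, and 10 of 13 calls in macrophage-like, 6 of 9 in dendritic-like, 6 of 10 in monocyte-like and 13 of 14 in keratinocyte-like cells held in every alternative that gave a value. The number of members called moved most where fewer or more members could be tested. With no filter on low counts (44 tested) it was 14 in dendritic-like and 20 in macrophage-like cells, beside 18.0% and 18.8% of all genes called. With at least 20 cells per library (35 tested) it was 14 in dendritic-like cells, beside 32.0%. The stricter gate (19 tested) gave 5 in dendritic-like and 4 in monocyte-like cells, beside 26.9% and 13.4%. Without shared barcodes (9 tested) it was 4, 4, 3 and 9 in dendritic-, macrophage-, monocyte- and keratinocyte-like cells, beside 46.0%, 45.6%, 30.3% and 53.2%. Thinned cells (8 tested) gave 5, 4, 3 and 7 in the same order, beside 39.2%, 39.2%, 19.8% and 50.9%. Leaving out 1 library gave 7 to 11, 9 to 15, 7 to 11 and 11 to 16 calls in these classes, the monocyte-like ones from as few as 2 libraries. With no replicate block the counts were 7, 12, 8 and 14, beside 30.7%, 33.0%, 17.6% and 44.6% of all genes called. The block pairs the classes of a library. The NK-like contrast and its alternatives were not run, since no library had 10 cells.

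For P50_Depil5D over P50, the all-cell ratio was 0.599 without shared barcodes, 0.679 without its leading member, 0.685 without cells with 10 or more members and 0.674 with TMM. The dendritic-like ratio was 0.924 with the stricter gate, 0.972 without the deepest 5% of cells, 0.669 without its leading member, 0.876 without cells with 10 or more members and 0.902 with TMM. The macrophage-like ratio was 0.398 in thinned cells, 0.392 without Mrc1 UMIs and 0.390 without Cd207 UMIs, and the keratinocyte-like ratio 1.04 without the deepest cells and 1.11 in thinned cells. The monocyte-like ratio was 0.399 with TMM and 0.599 with the stricter gate. For P80 over P45, the all-cell ratio of 1.11 turned to 0.860 without Ifitm1, Ifitm2 and Ifitm3, to 0.918 without the leading member and to 0.980 with TMM; the cause was not tested. The macrophage-like ratio was 2.98 in thinned cells, 2.75 without the Ifitm genes, 2.88 without the leading member, 1.75 without cells with 10 or more members and 1.38 with TMM. The keratinocyte-like ratio was 1.25 without the deepest cells, 1.40 in thinned cells, 1.38 without the Ifitm genes and 1.07 with TMM, the dendritic-like ratio 0.621 and the T-like ratio 0.536 with TMM. Leaving out cells with 10 or more members and splitting by Mrc1 or Cd207 were chosen after seeing the data. The 27 macrophage-like and 14 dendritic-like cells of P80 limit what that library can show.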
